A study of Mus musculus with 338 samples.

Results

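The subunits of the oxidative phosphorylation complexes were followed in RNA of mouse pancreatic islets. They were chosen by gene symbol from the table of raw counts: symbols that start with Ndufa, Ndufb, Ndufc, Ndufs, Ndufv, Uqcr, Cox4, Cox5, Cox6, Cox7, Cox8 or Atp5, with Sdha, Sdhb, Sdhc, Sdhd and Cyc1, and without the assembly factors named Ndufaf and symbols ending in -ps. This rule took 87 of 21382 genes. Of these, 36 belong to complex I, 4 to complex II, 9 to complex III, 20 to complex IV (Ndufa4 and Ndufa4l2 counted there) and 15 to complex V. The other 3 share only the spelling of the symbol: Cox4nb (current symbol Emc8), a subunit of the ER membrane complex, and Atp5s and Atp5sl (current symbol of the latter Dmac2). After the filter on low counts 84 were tested, which left out Ndufs5, Cox7b2 and Cox8c.

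Each library was made from the islets of 1 mouse. The mice belonged to the inbred strains 129S2/SvPas, AKR/J, A/J, BALB/cJ, DBA/2J and C57Bl/6J. They were fed either regular chow (RC) or a diet high in fat and sugar (HFHS), for 2, 10, 30 or 90 days. The fit held 303 libraries in 47 groups of 1 to 11, and 35 libraries of the series were left out of it. The labels name no transgene and give no age.

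Complex I (NADH dehydrogenase) and complex II (succinate dehydrogenase) pass electrons to ubiquinone, complex III passes them on to cytochrome c, complex IV (cytochrome c oxidase) passes them to oxygen, and complex V (ATP synthase) uses the proton gradient that complexes I, III and IV build. In beta cells the ATP made in this way closes the ATP-sensitive potassium channel and so links glucose metabolism to insulin secretion. Most subunits are encoded in the nucleus and some in mitochondrial DNA. The latter were not analysed here.

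Libraries in the fit had 9526900 to 50752000 reads assigned to genes (median 26280000). They were limited to those whose counts depended little on gene GC content, with a slope of at most 0.5 log2 per 10 GC points in size, and whose strain genes matched the label. All 35 libraries left out were beyond the bound, and 9 of them had the genes of another strain than labelled; settings with all libraries below include these 9. Left out were, among others, all of BALB/cJ HFHS at day 2 and all but 1 of DBA/2J RC at day 90. Ins2, which encodes insulin, was at 48533 to 229230 raw CPM (the standard depth-scaled count) in the 303 libraries, and Adipoq, a marker of fat cells, at 0 in 186 of them. Levels below are CPM after TMM scaling and removal of each library's GC curve (adjusted CPM). The labels name separate mice but no breeding or isolation batch, so that p-values measure the spread between these mice and their preparations.

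The subunits were abundant. The median member was at 44.8 adjusted CPM per kb of transcript, against 4.52 for all 16837 genes tested. The highest in complex V were Atp5b and Atp5a1, the catalytic beta and alpha subunits, at 299 and 261 CPM per kb. In complex I the accessory subunit Ndufb9 was at 99.4 CPM per kb, while the core subunits Ndufs1 and Ndufv1 were at 31.9 and 48.4. Medians over the members of a complex, untested ones included, lay between 38.6 CPM per kb in complex IV and 70.5 in complex II, with 43.4 in complex I, 61.1 in complex III and 46.04 in complex V.

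**Figure D1:**
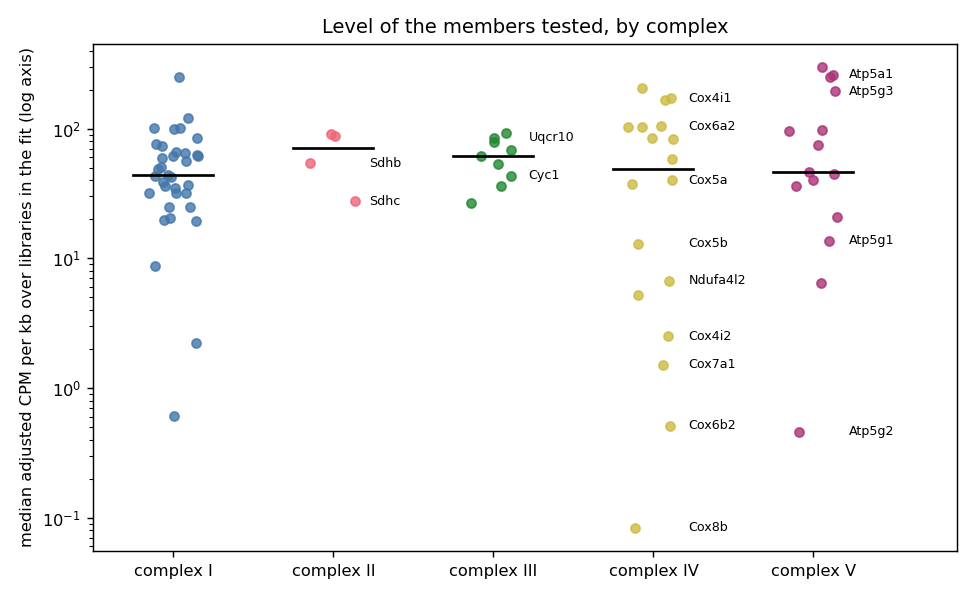
Median adjusted CPM per kb of each tested member over 303 libraries, on a log axis, by complex. Each point is a gene and each bar the median of the tested genes of its complex; the 3 genes that share only the symbol are not drawn, and the genes of complex IV reach from Cox8b at 0.0835 to Cox8a at 205.

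Where a subunit has isoforms encoded by separate genes, 1 of them usually held most of the RNA. Cox4i1 was at 171 CPM per kb and Cox4i2, the isoform known from lung and low oxygen, at 2.51. Cox8a was at 205, while Cox8b, known from muscle and brown fat, was at 0.0835 and Cox8c at 0. Cox6b1 was at 105.4 and the testis form Cox6b2 at 0.512. Cox7a2 was at 83.8 and the muscle form Cox7a1 at 1.51. Ndufa4 was at 103.6 and Ndufa4l2, known as a target of hypoxia-inducible factor, at 6.74. An exception was Cox6a2, known as the heart and muscle isoform: Cox6a1 was at 166 CPM per kb, and Cox6a2 lay between Ndufa4 (103.6) and Cox6c (84.3). The 4 muscle markers together were at 0.635 to 8.97 raw CPM in the libraries of the fit. Among the 3 genes of the ATP synthase c subunit, which code for the same mature protein, Atp5g3 was at 193, Atp5g1 at 13.6 and Atp5g2 at 0.460.

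Some low values belong to genes with near-identical copies elsewhere in the genome. Of the 87 members 20 had a pseudogene transcript that matched theirs at 95% or more over at least 200 bases, and their median was 17.5 raw CPM, against 50.9 for the other 67. Ndufs5, an accessory subunit of complex I, had 0 reads in 328 of the libraries deposited and never more than 1, while BC002163, whose transcript is 99.4% identical, had 23 to 1072 reads (median 316). Ndufab1 (0.607 CPM per kb), Ndufb4 (2.23), Atp5l (6.40, with 8 copies) and Atp5g2 are uncertain for the same reason, and so is Atp5g1, which has 1 copy at 99.8%. The kit keeps no strand, so that reads of an overlapping gene on the other strand cannot be told from those of the member. This concerns Cox6a2 (Itgad), Ndufa4l2 (Shmt2) and Cox4i1 (which overlaps Cox4nb), among others.

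The promoters were read to see what the members have in common apart from their symbols. RefSeq (GRCm38.p6) gave 74 promoters for 68 of the members, each from 250 bases before to 50 after the start of the gene. Their median GC content was 57.3%, against 52.7% for the 32851 promoters of all genes. Motifs were searched as exact letters on both strands. The palindromic NRF1 motif, whose letters stand in capitals in the sequences below, occurred in 5 of 68 member genes (7.35%) and in 1.07% of all 27025 genes. The YY1 motif AAGATGGC was in 10 of 68 (14.7%, against 3.19%) and the motif TCAAGGTCA of estrogen-related receptors in 2 (2.94%, against 0.47%). The ETS motif CCGGAAGT (7.35%, against 4.31%), CCAAT (44.1%, against 41.1%), GGGCGG (39.7%, against 38.2%) and TATAAA (10.3%, against 15.7%) were closer to all genes. A shorter form of the NRF1 motif, TGCGCATG, was in 8 of 68 (11.8%, against 2.42%) and overlaps the longer one in part. These are counts of letters, without a test.

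The genes with the palindrome were Atp5g2, Atp5k, Cox6a1, Ndufa11 and Uqcrc1. The 150 bases before the start of the gene are shown for 3 of them, one each from a c subunit gene, the e subunit of ATP synthase and an accessory subunit of complex I, 5′ to 3′ on the strand of the gene, with the NRF1 letters (both forms) in capitals. Atp5g2 lies at chr15:102671048-102671197 (minus strand), Atp5k at chr5:108434400-108434549 (minus strand) and Ndufa11 at chr17:56717612-56717761 (plus strand).
Atp5g2: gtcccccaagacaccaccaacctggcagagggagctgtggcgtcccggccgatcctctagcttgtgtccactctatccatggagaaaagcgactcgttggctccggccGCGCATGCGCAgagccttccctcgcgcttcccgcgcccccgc
Atp5k: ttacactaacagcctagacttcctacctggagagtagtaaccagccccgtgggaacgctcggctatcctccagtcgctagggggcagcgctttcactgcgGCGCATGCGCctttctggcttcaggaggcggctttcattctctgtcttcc
Ndufa11: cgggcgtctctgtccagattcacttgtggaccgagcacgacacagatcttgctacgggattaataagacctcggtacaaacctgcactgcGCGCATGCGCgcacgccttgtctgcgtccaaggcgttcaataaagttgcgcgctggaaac
In all 3 the palindrome stands once, in the last 60 bases before the start.

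Atp5g1 and Cox7a2l, described below for their differences between strains, are shown for comparison. Atp5g1 lies at chr11:96075632-96075781 (minus strand) and Cox7a2l at chr17:83514334-83514483 (minus strand). Capitals mark CCAAT and its reverse complement ATTGG in Atp5g1.
Atp5g1: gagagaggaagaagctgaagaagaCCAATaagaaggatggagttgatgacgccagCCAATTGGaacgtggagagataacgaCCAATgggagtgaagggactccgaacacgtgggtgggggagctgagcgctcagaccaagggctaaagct
Cox7a2l: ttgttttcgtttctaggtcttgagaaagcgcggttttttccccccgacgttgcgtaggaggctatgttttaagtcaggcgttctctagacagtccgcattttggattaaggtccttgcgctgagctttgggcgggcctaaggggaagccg
Neither holds the NRF1 palindrome in this window, and the 2 forms of CCAAT are found 4 times in the window of Atp5g1. No variant of the 6 strains was read, since these letters are the reference.

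The first question was how the diet changed these genes, taken at each day as the mean over strains. After 2 days on HFHS the subunits of the 5 complexes tended to be higher. Of the 84 members tested 38 rose and 2 fell (47.6%), against 16.9% of all genes called (10.2% higher and 6.71% lower), by edgeR's quasi-likelihood test with Benjamini-Hochberg adjustment at 0.05. The changes were small: the median member was at a log2 fold change of 0.12, against 0.01 for all genes, and 76 of 84 were above 0. Higher calls were 14 of 35 in complex I, 3 of 4 in complex II, 5 of 9 in complex III, 7 of 18 in complex IV and 9 of 15 in complex V. BALB/cJ had no HFHS library within the GC bound, so that the mean at day 2 is over 5 strains.

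The rises with the smallest p included core subunits of complexes I and III. Uqcrc1, a core protein of complex III, was at 92.0, 101.6 and 113.96 adjusted CPM (lowest, median, highest; n = 6) on RC and at 103.01, 112.6 and 125.08 (n = 6) on HFHS in C57Bl/6J. In AKR/J it was at 111.02, 114.6 and 116.7 (n = 5) on RC and at 127.4, 146.9 and 150.3 (n = 6) on HFHS, without overlap. In 129S2/SvPas it was at 103.7, 112.45 and 123.03 (n = 5) on RC and at 107.4, 118.4 and 166.8 (n = 8) on HFHS. The median was higher on HFHS in these 3 strains and also in DBA/2J and A/J, and the groups overlapped in all but AKR/J. The mean over strains was a log2 fold change of 0.20 (SE 0.0343, adjusted p = 1.49e-06).

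Ndufv1, the subunit of complex I that binds NADH, rose by 0.18 (SE 0.0317, adjusted p = 6.31e-06). Its medians in AKR/J were 81.4 adjusted CPM on RC and 106 on HFHS, and those in C57Bl/6J were 74.6 and 81.02. Ndufs1, the largest iron-sulfur subunit of complex I, rose by 0.12 (SE 0.0212, adjusted p = 6.40e-06). Cyc1, cytochrome c1 of complex III, rose by 0.19 (SE 0.0354, adjusted p = 1.43e-05) and Cox4i1, a nuclear subunit of complex IV, by 0.17 (SE 0.0426, adjusted p = 0.00131). In complex V, Atp5j (coupling factor 6) rose by 0.20, Atp5g3 by 0.22, Atp5o (the subunit that joins the stalk to the catalytic head) by 0.23 and Atp5b by 0.15. In complex II, Sdha, the flavoprotein, rose by 0.06 (SE 0.0233, adjusted p = 0.0465) and Sdhd, a membrane anchor, by 0.15. Sdha was no longer called under 8 of the alternatives tried, among them without A/J at day 2 (0.01, adjusted p = 0.76).

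The count at day 2 depended on 1 strain. Counts under this and later alternatives are given without the share of all genes called in the same setting, which can change too. Without the AKR/J mice of day 2 it was 21 higher and 2 lower. With all libraries and no GC correction it was 18 higher and 17 lower, and Uqcrc1, Ndufv1, Cyc1 and Cox4i1 were then at -0.08, -0.18, -0.06 and -0.14, none of them called. With the GC correction kept and only the 9 libraries of another strain left out, Ndufv1 was at 0.02 (adjusted p = 0.837), Cyc1 at 0.09 (0.207) and Cox4i1 at 0.11 (0.0978), again not called. Cox4i1 was not called either without A/J at day 2 (0.12, adjusted p = 0.0524) or without GC correction on the 303 libraries (0.11, adjusted p = 0.102). On the authors' deposited table, tested with limma, Uqcrc1 (0.10), Ndufv1 (0.09), Cyc1 (0.10) and Cox4i1 (0.07) were above 0 but not called (adjusted p of 0.0917, 0.1057, 0.0710 and 0.305).

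**Figure D2:**
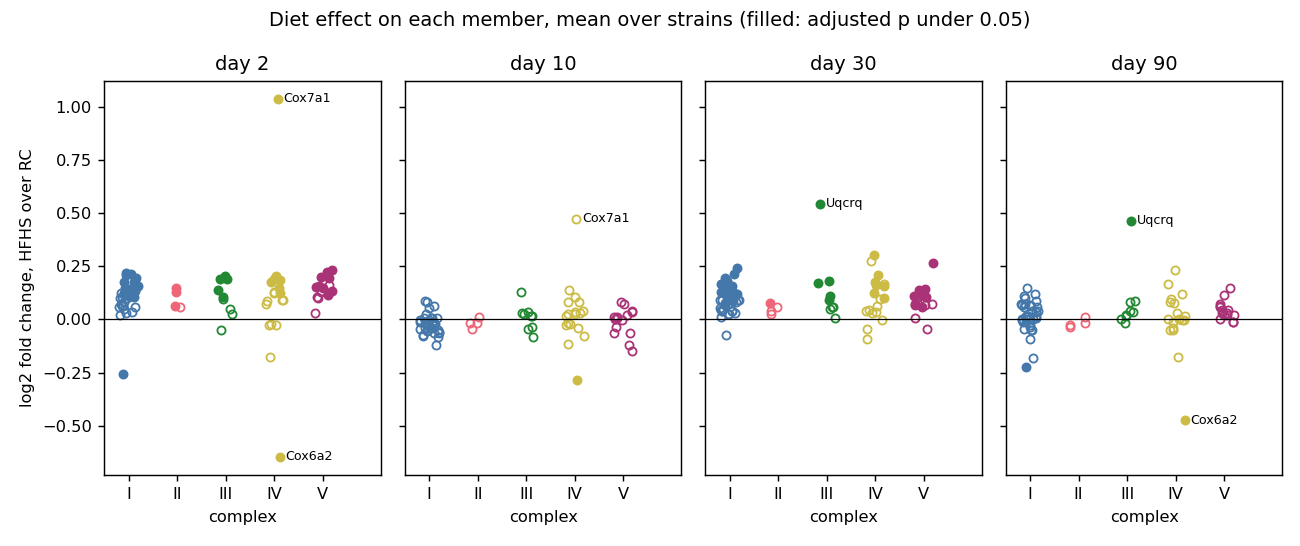
Log2 fold change (HFHS over RC, mean over strains) of each tested subunit at each day, by complex, without the 3 genes that share only the symbol; filled points passed an adjusted p of 0.05, open points did not. At days 2 and 30 most points lie just above 0, at day 10 a single point is filled, and Cox6a2 lies lowest at days 2, 10 and 90.

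Markers of other cells changed at day 2 as well. Of the stellate cell and fibroblast list 4 of 5 genes fell (Col1a1 by 0.87, Col1a2 by 0.72, Col3a1 by 0.63 and Lum by 0.64 on the log2 scale), with a summed level of 225 to 1847 raw CPM on RC and 172 to 1297 on HFHS. Of 4 macrophage genes 4 fell, with a sum of 59.6 to 252 on RC and 58.6 to 165 on HFHS. Of 4 duct cell genes Sox9 fell by 0.65 and Spp1 by 0.56 while Krt7 rose by 0.25, with a sum of 208 to 457 on RC and 203 to 528 on HFHS. Of 4 endothelial genes 2 fell (Cdh5 by 0.29 and Pecam1 by 0.22), with a sum of 301 to 560 on RC and 260 to 578 on HFHS. Of 9 beta cell genes 3 fell (Mafa, Nkx6-1 and Ucn3) and none rose. In RNA of whole islets fewer cells of a type and less RNA per cell cannot be told apart, and the part of these changes in the rise of the subunits was not tested. The median GC slope of the libraries was 0.0503 on RC and 0.00327 on HFHS at day 2.

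Cox6a2 fell at day 2, against the direction of most subunits, and the call rested on A/J. In A/J on RC, Cox6a2 was at 50.2, 59.6 and 67.2 adjusted CPM in the 3 mice. In the 4 mice on HFHS it was at 6.31, 7.16, 12.9 and 18.03, all below RC. The log2 fold change of Cox6a2 in A/J was -2.41 (SE 0.271), and over strains it fell by 0.65 (SE 0.0957, adjusted p = 3.69e-08).

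Without the A/J mice of day 2 the value of Cox6a2 was -0.21 (adjusted p = 0.146). The A/J libraries on HFHS also differed from RC in fat cell genes, which are near 0 elsewhere. Adipoq was at 0.0360, 1.28, 2.84 and 5.62 raw CPM in the HFHS mice and at 0, 0 and 0.0286 in the RC mice. Cidec, which coats lipid droplets, was at 3.78, 5.36, 9.77 and 19.9 on HFHS and at 0.0286, 0.0304 and 0.124 on RC. The genes did not go together by mouse. Mouse 4HF3 had the highest Cidec value (19.9) but Adipoq at 0.0360, close to RC. Its value of Plin1, also of the fat cell list, was the lowest of the HFHS mice (0.360). Over strains 2 of the 3 genes of the fat cell list rose at day 2, and the summed level of the list was 0.0355 to 1.17 raw CPM on RC and 0 to 20.3 on HFHS. Col1a1, a collagen of stellate cells and fibroblasts, was at 33.8, 44.8, 64.7 and 64.8 raw CPM in the A/J mice on HFHS and at 209, 227 and 364 on RC, without overlap. Cela2a, an acinar cell gene, was also lower in every HFHS mouse (41.5 to 205, against 234 to 1679), while Cpa1, another, overlapped (45.7 to 274, against 157.4 to 1181). The part of these RNAs in the values of Cox6a2 was not tested.

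Cox7a1, the muscle form of a small subunit of complex IV, rose at day 2 by 1.04 (SE 0.209, adjusted p = 7.61e-05) from RC medians of 0.324 to 0.998 adjusted CPM. In A/J it was at 0.937, 0.998 and 1.29 on RC, and on HFHS 1 mouse stood at 10.3 above 1.19 to 1.73 in the other 3. In 129S2/SvPas it was at 0.108, 0.324 and 0.614 on RC (n = 5) and at 0.212, 0.400 and 6.30 on HFHS (n = 8). Single mice were therefore far above their groups, while the group medians were higher on HFHS in 5 of 5 strains. Without the highest mouse of A/J, of 129S2/SvPas and of DBA/2J (2.47), an alternative chosen after the values were seen, Cox7a1 was at 0.35 (adjusted p = 0.172) and no longer called, and the count of members was 31 higher and 2 lower.

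The values at day 2 were highest in AKR/J, though differences between strains at single days were not tested. The median member was at 0.30 there, with 77 of 84 above 0, against 0.06 in 129S2/SvPas, 0.07 in C57Bl/6J, 0.09 in DBA/2J and 0.10 in A/J. Medians by complex in AKR/J ran from 0.23 in complex IV to 0.36 in complex V. The gene that moved most there among those called in the interaction was Atp5g1, at 7.17, 7.25, 7.31, 7.34 and 7.98 adjusted CPM in the 5 RC mice and at 12.1, 14.7 and 19.2 (lowest, median, highest; n = 6) on HFHS. The groups did not overlap, and the log2 fold change was 1.00 (SE 0.141). The GC slope was lower on HFHS in these AKR/J libraries, with a median of 0.130 against 0.222 on RC.

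At day 10 the subunits differed little between the diets. Of the 84 members 0 rose and 1 fell, against 4.25% of all genes called (2.07% higher and 2.18% lower), and 37 of 84 had a value above 0. The median over members was -0.01, and no complex had a median beyond 0.03 in size. The 1 gene called was Cox6a2, at -0.28 (SE 0.0900, adjusted p = 0.0457). It was no longer called under 9 of the alternatives tried, or without 1 A/J mouse on HFHS (-0.23, adjusted p = 0.11). Within strains the medians differed in sign: 0.17 in DBA/2J, with 78 of 84 above 0, and -0.16 in AKR/J, with 1 of 84 above 0. In AKR/J at day 10 the median GC slope was 0.0833 on HFHS and 0.240 on RC.

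At day 30, 38 members rose and 0 fell, against 20.9% of all genes called (11.8% higher and 9.08% lower). The rise was smaller than at day 2 for the median member (0.08), and 78 of 84 were above 0. Calls fell on 16 of 35 genes in complex I, 1 of 4 in complex II, 5 of 9 in complex III, 7 of 18 in complex IV, 8 of 15 in complex V and on Atp5sl. The largest was Uqcrq, a small subunit of complex III, at 0.54 (SE 0.0689, adjusted p = 4.21e-11). Ndufs7, an iron-sulfur subunit of complex I, was at 0.24 (SE 0.0455, adjusted p = 1.18e-05), Ndufa12, an accessory subunit, at 0.20 (SE 0.0401) and Cox5b, a nuclear subunit of complex IV, at 0.21 (SE 0.0432).

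These rises leaned on DBA/2J, whose libraries at day 30 differed in GC slope between the diets: -0.492 to -0.221 on RC and 0.0659 to 0.287 on HFHS. Uqcrq was at 8.66, 10.8 and 18.97 adjusted CPM in the 7 RC mice and at 59.5, 77.1 and 92.0 in the 8 HFHS mice of DBA/2J, while in C57Bl/6J it was at 40.7 to 59.3 on RC and 39.7 to 75.7 on HFHS. Values under 20 also occurred elsewhere, in 4 of the 6 BALB/cJ mice on RC at day 2 (8.88, 13.2, 17.1 and 18.9), in 1 A/J mouse on HFHS at day 2 (11.5), in 1 A/J mouse of each diet at day 10 (13.4 on RC and 11.6 on HFHS) and in DBA/2J at day 90 in 1 mouse on HFHS (13.7) and in the single RC library (16.5). Without DBA/2J at days 30 and 90 the count at day 30 was 8 higher and 0 lower, and Uqcrq was at 0.11 (adjusted p = 0.31). With the GC bound at 0.25 it was 7, and with the GC slope as a covariate in limma voom 2 higher and 2 lower. The stellate cell and fibroblast list fell at day 30 in 5 of 5 genes, with a sum of 170 to 1246 raw CPM on RC and 64.7 to 947 on HFHS, and 4 of 9 beta cell genes rose (Ins1 by 0.17, Iapp by 0.17, Pdx1 by 0.14 and Mafa by 0.63). Their part in the result was not tested.

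After 90 days few members differed among the 303 libraries. There were 2 higher and 2 lower calls, against 13.6% of all genes called (6.5% higher and 7.1% lower), and the median member was at 0.02. With only the 9 libraries of another strain left out, the count was 39 higher and 2 lower. Cox6a2 fell by 0.47 (SE 0.0861, adjusted p = 9.78e-06).

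In AKR/J at day 90, Cox6a2 was at 74.7, 90.1 and 110 adjusted CPM on RC and at 46.3, 52.0 and 72.4 on HFHS (n = 8 each), without overlap. In C57Bl/6J it was at 52.7, 72.4 and 81.3 on RC (n = 5) and at 16.5, 40.3 and 55.6 on HFHS (n = 6). In 129S2/SvPas it was at 4.97, 84.8 and 117.4 on RC (n = 11) and at 32.8, 46.9 and 54.9 on HFHS (n = 9). Apart from mouse 6RC89 at 4.97 and mouse 6RC87 at 44.8, the 129S2/SvPas RC mice were above all on HFHS. The log2 fold changes in strains were -0.90 in C57Bl/6J, -0.70 in 129S2/SvPas, -0.68 in AKR/J, -0.53 in BALB/cJ, -0.20 in A/J and 0.17 in DBA/2J, where RC is a single library. Of the fat cell list 0 of 3 genes were called at day 90, with a sum of 0 to 0.702 raw CPM on RC and 0.0230 to 1.79 on HFHS.

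Uqcrq, at 0.46, was called higher and rested on DBA/2J: without it at days 30 and 90 the value was 0.03 (adjusted p = 0.83). Atp5sl, known to act in complex I assembly, was at 0.11 (adjusted p = 0.0271). It was not called with the GC bound at 0.25 (0.07, adjusted p = 0.157), with the samples of the comparison alone (0.11, adjusted p = 0.0591) or with the GC slope as a covariate (0.06, adjusted p = 0.179). With all libraries and no GC correction Cox6a2 was not called at day 90 (-0.24, adjusted p = 0.22), and 20 members were called higher.

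Values within strains differed in direction at day 90, which was not tested. In AKR/J 78 of 84 members were above 0 (median 0.21) and in BALB/cJ 77 (median 0.09), while in 129S2/SvPas 4 were above 0 (median -0.16). C57Bl/6J, DBA/2J and A/J had medians between -0.04 and 0.01. The median over all genes in these 6 comparisons lay between -0.02 and 0.02. The GC slope had medians of 0.0644 on HFHS and 0.0356 on RC in AKR/J, and of 0.00223 and 0.0251 in 129S2/SvPas.

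**Figure D3:**
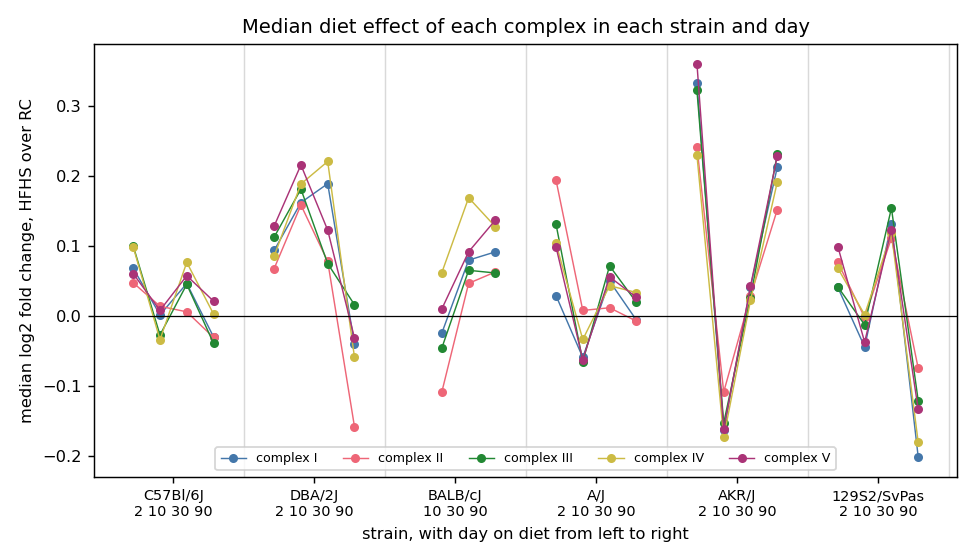
Median log2 fold change (HFHS over RC) over the tested members of each complex, in each strain, with days on diet from left to right and BALB/cJ from day 10. In AKR/J the lines of the 5 complexes go from 0.23 to 0.36 at day 2 to below 0 at day 10 and above 0 at day 90, and complex II, with 4 genes, lies apart from the others in DBA/2J at day 90 and in A/J at day 2.

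Whether the diet effect differed between strains was tested across the 6 strains on the effect averaged over the days with libraries on both diets. For BALB/cJ these were days 10, 30 and 90, so that its mean leaves out day 2, unlike that of the other strains. In DBA/2J the value at day 90 rests on 1 RC library. It differed for 28 of 84 members (33.3%), against 46% of all genes called, a share below the background. By complex the counts were 14 of 35 in complex I, 0 of 4 in complex II, 3 of 9 in complex III, 7 of 18 in complex IV and 4 of 15 in complex V. Among them were Uqcrq, with the smallest adjusted p (5.00e-16), Atp5g1 (5.39e-08), Cox6a2 (1.79e-06), Ndufa1 (5.74e-05) and Ndufb6 (9.64e-05). The latter pair are accessory subunits of complex I. Without DBA/2J at days 30 and 90 the count was 15, and Ndufb6 was not called (adjusted p = 0.1).

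The pattern of Atp5g1 was that of AKR/J, as at day 2. At day 90 it was at 7.49, 8.81 and 10.2 adjusted CPM on RC and at 9.68, 14.7 and 19.8 on HFHS (n = 8 each), a log2 fold change of 0.72 (SE 0.115), and the groups overlapped. At days 10 and 30 the value in AKR/J was -0.16 and 0.06. In BALB/cJ at day 10 it was lower on HFHS, at 6.07, 7.72 and 11.1 (n = 6) against 9.89, 12.6 and 12.9 on RC (n = 4), a log2 fold change of -0.55. For Cox6a2 the effect averaged over days was lowest in A/J (-0.79, SE 0.115), then -0.55 in C57Bl/6J, -0.43 in 129S2/SvPas, -0.23 in BALB/cJ and -0.19 in AKR/J, and above 0 only in DBA/2J (0.23, SE 0.126). The value in DBA/2J was 0.94 at day 30 (63.2 to 91.7 on RC and 117.6 to 161.2 on HFHS), where the RC libraries had the low GC slopes given above.

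Differences between the strains on RC were larger than those between diets for a few genes. Each strain was set against the mean of the other 5, and calls needed an adjusted p under 0.05 and a log2 difference of 0.5 or more in either direction. Few members passed in any strain. In C57Bl/6J 0 were higher and 3 lower, against 12.9% of all genes called (7.32% higher and 5.57% lower). In DBA/2J 4 were higher and 4 lower, against 13.6% (4.73% and 8.87%). In BALB/cJ 0 were higher and 2 lower, against 10.7% (3.49% and 7.16%). In A/J 3 were higher and 0 lower, against 11% (6.17% and 4.87%). In AKR/J 3 were higher and 0 lower, against 13.3% (9.94% and 3.39%). In 129S2/SvPas 0 were higher and 3 lower, against 11.7% (7.25% and 4.42%). The members called were 2.38% to 9.52% of the 84, below the background in each strain.

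As a set the members lay a little lower in C57Bl/6J (median -0.16, with 11 of 84 above 0) and in BALB/cJ (median -0.12, with 12 above 0). They lay a little higher in A/J (median 0.15, with 77 above 0) and DBA/2J (median 0.16, with 58 above 0). AKR/J and 129S2/SvPas had medians of 0.05 and -0.05. The medians over all genes were within 0.02 of 0. A list of 76 mitochondrial ribosomal proteins, described below, was shifted in the same directions in these 4 strains. Its median was -0.13 in C57Bl/6J, -0.07 in BALB/cJ, 0.14 in A/J and 0.12 in DBA/2J. In AKR/J it was 0.0003 and in 129S2/SvPas -0.04. Reads were aligned to a reference made from C57Bl/6J, and the effect of sequence differences of the other strains on these counts was not tested.

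Levels on RC by strain are given as the lowest, the median and the highest mouse. Atp5g1 was low in C57Bl/6J (3.65, 5.24 and 6.44 adjusted CPM, n = 25) and 129S2/SvPas (4.29, 5.89 and 7.23, n = 29) and high in DBA/2J (8.80, 11.5 and 18.3, n = 19). DBA/2J did not overlap with either. The log2 fold changes were -0.77 (SE 0.0557), -0.59 (SE 0.0538) and 0.74 (SE 0.0651). BALB/cJ (n = 26), A/J (n = 22) and AKR/J (n = 27) had medians of 8.88, 9.03 and 8.73 and overlapped.

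Cox7a2l, which joins complexes III and IV into supercomplexes and is known to be shortened in C57Bl/6J, was at 29.3, 37.3 and 52.8 in DBA/2J and at 63.7, 75.6 and 105.5 in C57Bl/6J, without overlap. The log2 fold change was -0.64 (SE 0.0756, adjusted p = 3.51e-14) in DBA/2J. In C57Bl/6J it was 0.43 (SE 0.0464, adjusted p = 7.58e-17), which is under the bound of 0.5. Its level went with the GC slope of the library within groups (r = 0.68 over 303 libraries, as a description), and with the slope as a covariate the DBA/2J value was -0.38.

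**Figure D4:**
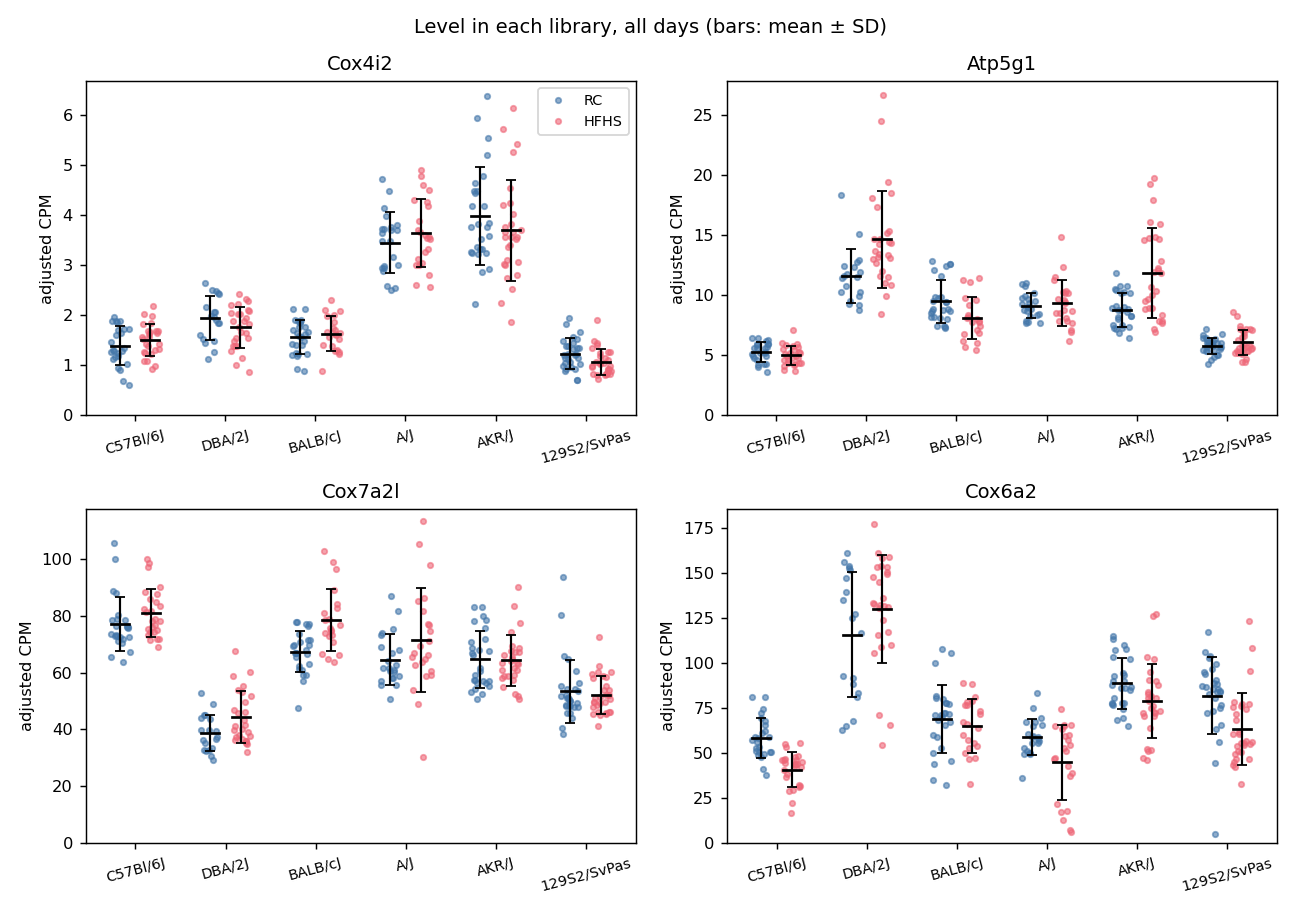
Adjusted CPM of Cox4i2, Atp5g1, Cox7a2l and Cox6a2 in each of 303 libraries, by strain and diet (RC blue, HFHS red), all days together; bars are mean ± SD. On RC Cox4i2 is higher in AKR/J and A/J than in C57Bl/6J and 129S2/SvPas, without overlap, and Atp5g1 in AKR/J reaches higher on HFHS than on RC.

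In complex IV the isoforms of low abundance differed between strains too. Cox4i2 was at 2.23, 3.77 and 6.39 in AKR/J and 2.51, 3.57 and 4.72 in A/J, above 0.604, 1.302 and 1.97 in C57Bl/6J and 0.703, 1.21 and 1.95 in 129S2/SvPas. The former 2 strains did not overlap with the latter 2, and the log2 fold changes were 1.14, 0.89, -0.68 and -0.84. Cox6a2 was highest in DBA/2J (63.2, 125.3 and 161.3, log2 fold change 0.64, SE 0.0986). That value was under 0.5 with all libraries and no GC correction (0.44) and with only the 9 libraries of another strain left out (0.42). Ndufa4l2 was highest in AKR/J (7.25, 11.2 and 17.1, log2 fold change 0.93) and lower in DBA/2J (-0.51). Islet preparations can differ between strains in their share of other cells, such as stellate cells and fibroblasts. The part of such cells in the strain values of Cox4i2 and Ndufa4l2 was not tested. Cox7a1 was higher in A/J (0.86) and lower in 129S2/SvPas (-0.66), at medians of 1.05 and 0.350 adjusted CPM. Cox8b, at a median of 0.0835 CPM per kb over all libraries, was called higher in DBA/2J, where its median was 0.227 adjusted CPM. Its fitted log2 value of 2.03 depends on the prior count and is no bound.

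Complex I held 2 further strain differences. Ndufa12 was at 11.02, 15.4 and 19.1 in AKR/J, against medians of 7.62 to 9.71 in the other strains (log2 fold change 0.79, SE 0.0409). It was at -0.50 in BALB/cJ, on the edge of the bound, and under 0.5 in size in 8 of the alternatives. Ndufb2 was at -0.54 in BALB/cJ, and under 0.5 in size with the GC bound at 0.25 (-0.496) and with a GC and length offset (-0.41). Uqcrq (-0.81), Ndufa4l2 and Cox7c (-0.59) were lower in DBA/2J in this fit. Without DBA/2J at days 30 and 90 they were at 0.28, -0.16 and -0.12.

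On RC, day 90 was set against day 2 as the mean over strains. For DBA/2J the day 90 side of this mean is 1 library, which stands for the whole strain. Of the members 14 rose and 3 fell (20.2%), against 33.7% of all genes called (18.3% higher and 15.4% lower), with a median of 0.07. Cox8a rose by 0.16 (SE 0.0377, adjusted p = 0.000273), Sdha by 0.08, Ndufb8 by 0.14, Ndufb10 by 0.13 and Ndufa12 by 0.17. Ndufa4l2 fell by 0.39 (SE 0.0716, adjusted p = 1.81e-06), Cox6b2 by 0.45 and Cox4nb by 0.13.

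Several of the calls over time were lost under alternatives. Without DBA/2J at days 30 and 90, Sdha (0.04), Ndufb8 (0.01) and Ndufb10 (0.04) were not called. With all libraries and no GC correction Cox8a (0.06), Sdha (0.04), Ndufb8 (0.01), Ndufb10 (-0.03) and Ndufa12 (0.04) were not called. On the authors' table Cox8a (0.06) was not called, nor was Cox6b2 without AKR/J at day 2 (-0.37). For Ndufa4l2 the difference was large in AKR/J, with 12.1, 14.4 and 17.1 adjusted CPM on RC at day 2 (n = 5) and 8.28, 8.87 and 10.5 at day 90 (n = 8), without overlap. In C57Bl/6J it was at 4.23, 6.01 and 6.497 at day 2 (n = 6) and 4.16, 4.58 and 5.77 at day 90 (n = 5). The count over all members depended on the libraries. It was 26 higher and 3 lower without A/J at day 2 and 30 and 2 without AKR/J at day 2. Without DBA/2J at days 30 and 90 it was 5 and 10. With the GC bound at 0.25 it was 6 and 7, and with all libraries and no GC correction 0 and 7. Without mouse 1RC137 of C57Bl/6J at day 90 alone it was 8 and 3. The stellate cell and fibroblast list fell over the same time in 5 of 5 genes (Col1a1 by 1.55) and the alpha cell list in 4 of 5 (Gcg by 0.43). Their part in these values was not tested.

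Other genes of the mitochondrial machinery, from lists written for this comparison, were counted in the same fit. Of 76 mitochondrial ribosomal proteins, which translate the subunits encoded in mitochondrial DNA, 17 rose and 0 fell at day 2 (22.4%, against 16.9% of all genes called) and 31 rose and 0 fell at day 30 (40.8%, against 20.9%). Of 29 assembly factors in the table (49 were listed) 4 rose at day 2 and 0 fell (13.8%, below the share of all genes): Ecsit (0.18, adjusted p = 5.98e-07), Surf1 (0.15), Lrpprc (0.11) and Taco1 (0.10). At day 30, 10 rose, among them Cox17 (0.27) and Atpaf1 (0.24), and 1 fell, Lyrm7 (37.9% called).

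Of 16 regulators of mitochondrial biogenesis 1 was called at day 2 (6.25%, below the 16.9% of all genes), Yy1, which rose by 0.08 (adjusted p = 0.0249). The number called was 2 at day 10 (12.5%, against 4.25% of all genes) and 5 at day 30 (31.25%, against 20.9%). It was 2 at day 90 (12.5%, below the 13.6% of all genes). At day 10 Tfb1m fell by 0.22 (adjusted p = 3.52e-06) and Yy1 rose by 0.09 (adjusted p = 0.0141). At day 30 Esrra, an estrogen-related receptor, rose by 0.23, Tfb2m, a mitochondrial transcription factor, by 0.19, Polrmt by 0.11 and Polg by 0.11, and Tfb1m fell by 0.08. At day 90 Esrra (0.20) and Ppargc1a (0.29, adjusted p = 0.0448), a coactivator of mitochondrial biogenesis, rose. From day 2 to day 90 on RC 6 rose and 1 fell (43.8%, against 33.7% of all genes). Ppargc1a rose by 0.64 (SE 0.106, adjusted p = 1.70e-07), Pprc1 by 0.20, Peo1, the mitochondrial helicase, by 0.18, Tfb2m by 0.17, Tfam by 0.11 and Yy1 by 0.10, and Gabpb1 fell by 0.07.

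The subunits also varied together from mouse to mouse. After the group means were removed, the median correlation between 2 members over the 303 libraries was 0.64, and between a member and the mean of the others 0.83. It was highest for Atp5j2 (0.93), Ndufv2 (0.92) and Cox6b1 (0.92), the f subunit of ATP synthase, a flavoprotein partner of Ndufv1 and an intermembrane subunit of complex IV. These points share the library, its depth and its GC bias, and are given as a description.

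The GC slope of the library was part of what they share. The members were slightly richer in GC (median 51.9%, against 50.4%) and much shorter (758 nt, against 2755 nt) than all genes tested. Within groups the median correlation of a member with the slope was 0.31 before the GC curves were removed and 0.33 after, against -0.01 and 0.02 for all genes. After removal 18 of 84 members (21.4%) were above 0.5, against 3.04% of all genes. Uqcrq (0.81), Ndufs7 (0.77) and Ndufa2 (0.77) were highest, while Cox8a (-0.05) and Cox7a1 (-0.02) were near 0. The curves thus left a relation of many subunits with the slope, and its part in the diet and time counts was not tested beyond the alternatives given.

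**Figure D5:**
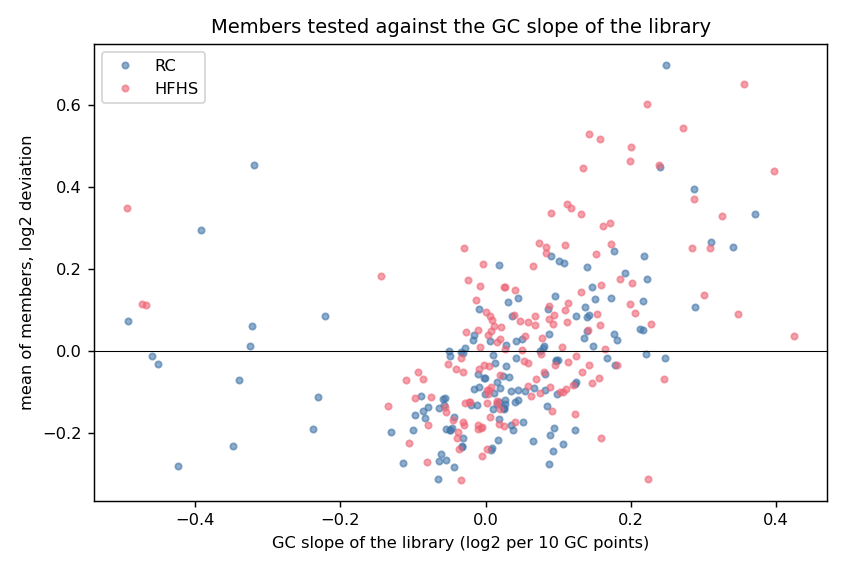
Mean log2 deviation of the 84 tested members from their overall mean (y axis) against the GC slope of the library in log2 per 10 GC points (x axis), after removal of the GC curves, for 303 libraries on RC (blue) and HFHS (red). Between slopes of about -0.15 and 0.4 the points rise with the slope on both diets, while the 16 libraries below -0.2 do not follow them and lie between -0.279 and 0.455.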

How the data were processed

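RNA of mouse islets, 1 mouse per library, was sequenced after poly(A) selection, with a kit that keeps no strand. The deposited counts are whole reads per gene. The submitters' processing notes name TopHat 1.3.3, SAMtools 0.1.16, HTSeq 0.5.3p3, edgeR and the build mm9. The authors' second deposited table holds log2 values and was used as an alternative.

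GC content and transcript length came from GENCODE M21 (GRCm38). A curve of counts against GC (natural spline, 5 degrees of freedom) was fitted per library and entered edgeR 4.0.16 (R 4.3.3) as an offset, with TMM scaling, a prior count of 2 and robust quasi-likelihood tests over 16837 genes with Benjamini-Hochberg adjustment. The threshold was an adjusted p of 0.05, and for strains a log2 difference of 0.5 in addition. Libraries with a GC slope above 0.5 log2 per 10 points in size, or whose strain genes did not match, were left out. Libraries had 9526900 to 50752000 assigned reads, so that counting error is small for abundant members. The method was run on simulated counts for the diet effect at day 30 only. These were drawn independently for each gene, and so lack the variation that the members share.

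Named members were up to 5 called per direction with the smallest p (6 for the interaction), up to 3 per strain with the largest change and a mean CPM of at least 5, the extremes of level in each complex, those that an alternative reversed, the paralog families, the succinate dehydrogenase genes and core subunits, and from other lists up to 4 with the smallest p. Any others were named after their values were seen. The values of 1 member are not reported here. Alternatives used limma 3.58.1 and DESeq2 1.42.0. The members and lists were chosen with earlier results of these data known.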

Additional observations from a re-analysis of the deposited data

Results flagged for a closer look

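The highest or lowest library of each group of 4 to 10 was compared with the rest of its group by Dixon's ratio, for the mean of the members and for Cox6a2, Atp5g1, Cox7a2l, Uqcrq and Cox7a1. Of 252 such checks 35 stood apart. The bounds used give about 1 in 20 for independent checks of normal values. The genes were checked as unlogged CPM and the measures of a library go together, so that the number due to chance is not known. Values below are adjusted CPM except for the mean of the members, which is a log2 deviation.

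Several mice stood apart in more than 1 measure. In C57Bl/6J HFHS at day 30, mouse 1HF147 had members at 0.337 (others -0.315 to -0.00727), Uqcrq at 75.7, Atp5g1 at 7.07 and Cox7a1 at 4.98 (others 0.356 to 0.731). In C57Bl/6J RC at day 90, mouse 1RC137 had members at 0.244, Uqcrq at 72.5 and Cox7a2l at 105.5. In 129S2/SvPas HFHS at day 10, mouse 6HF17 had members at 0.0886 (others -0.224 to -0.115), Uqcrq at 69.2 and Cox7a1 at 4.22. In A/J HFHS at day 2, mouse 4HF3 had Atp5g1 at 10.3 and Cox7a1 at 10.3. The mean of the members was low in mouse 6RC25 of 129S2/SvPas RC at day 30 (-0.279).

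Cox7a1 gave 11 of these flags. It was high in mouse 6HF1 of 129S2/SvPas HFHS at day 2 (6.30), 2HF111 of DBA/2J HFHS at day 2 (2.47), 1HF160 of C57Bl/6J HFHS at day 90 (2.17), 5RC42 of AKR/J RC at day 90 (1.94), 5HF14 of AKR/J HFHS at day 10 (1.18), 2HF117 of DBA/2J HFHS at day 10 (1.03), 6HF41 of 129S2/SvPas HFHS at day 90 (0.921) and 6RC17 of 129S2/SvPas RC at day 10 (0.660). Uqcrq was low in mouse 2HF135 of DBA/2J HFHS at day 90 (13.7, others 88.4 to 134.1) and high in 2RC114 of DBA/2J RC at day 30 (18.97), 5RC28 of AKR/J RC at day 30 (68.1) and 1HF159 of C57Bl/6J HFHS at day 90 (54.9).

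Cox7a2l was high in mouse 3HF44 of BALB/cJ HFHS at day 90 (102.9), 4HF41 of A/J HFHS at day 90 (105.3) and 1RC114 of C57Bl/6J RC at day 2 (87.9), and low in 6RC16 of 129S2/SvPas RC at day 10 (38.5). Cox6a2 was low in 1HF148 of C57Bl/6J HFHS at day 30 (22.4) and 4HF43 of A/J HFHS at day 90 (37.2), and high in 3RC42 of BALB/cJ RC at day 90 (107.7). Atp5g1 was low in 1HF157 of C57Bl/6J HFHS at day 90 (3.66) and 3RC17 of BALB/cJ RC at day 10 (9.89), and high in 5RC4 of AKR/J RC at day 2 (7.98).

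The diet effect differed between strains, by edgeR's quasi-likelihood F test with adjustment over all genes, for Uqcrq (adjusted p = 5.003e-16), Atp5g1 (5.394e-08), Cox6a2 (1.793e-06), Ndufa1 (5.74e-05) and Ndufb6 (9.641e-05). Without DBA/2J at days 30 and 90 Ndufb6 was not called (0.1).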

How the results depend on the processing

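Limits first: the fit holds 0 BALB/cJ HFHS libraries at day 2 and 1 DBA/2J RC library at day 90, the members kept a relation with the GC slope, and the effect of 35 libraries left out is seen only in the settings that include them. Where a value below differs from that in the report, the cause was not tested. Counts are members called, higher and lower in brackets, without the share of all genes called in the same setting. All libraries include 9 whose strain genes do not match the label, and these are the 9 left out in the setting named for them.

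At day 2 (40 called) the count was 68 (66 and 2) with the GC slope as a covariate in limma voom, 25 (22 and 3) on the authors' table and 23 (21 and 2) without AKR/J at day 2, and 35 (18 and 17) with all libraries and no GC offset, where Uqcrc1 (-0.0798), Ndufv1 (-0.18), Cyc1 (-0.0618) and Cox4i1 (-0.14) were below 0.

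At day 10 (1 called) the count was 0 with all libraries, without GC offset, with all libraries but 9, with a GC bound of 0.25, without a filter on low counts, with limma voom and on the authors' table, 2 without DBA/2J at days 30 and 90, without AKR/J at day 2, with the samples of the comparison alone and with DESeq2, and 5 with a GC and length offset. At day 30 (38 called) it was 8 with all libraries, 17 with all but 9, 7 at a bound of 0.25, 8 without DBA/2J at days 30 and 90 and 4 with the covariate, where Ndufs7 was at -0.0001763. At day 90 (4 called) it was 20 with all libraries, 8 (5 and 3) without offset, 41 (39 and 2) with all but 9, 2 at a bound of 0.25, where Uqcrq was at -0.0144, and 18 (15 and 3) with the length offset. For the interaction (28 called) it was 55 with all libraries, 48 with all but 9, 51 with the length offset and 15 without DBA/2J at days 30 and 90.

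Between strains, DBA/2J (8 called) gave 4 at a bound of 0.25 and 5 without its days 30 and 90, where Uqcrq was at 0.28. BALB/cJ (2 called) gave 1 with all libraries, at a bound of 0.25, with DESeq2 size factors and without A/J at day 2, and 0 with the length offset. A/J (3 called) gave 5 with the covariate, AKR/J (3 called) gave 6 with all libraries, and 129S2/SvPas (3 called) gave 5 with limma voom and 5 with the covariate. From day 2 to day 90 (17 called) the count was 7 (0 and 7) with all libraries, where Ndufb10 was at -0.0305, 29 without A/J at day 2, 32 without AKR/J at day 2, 39 with the covariate and 5 on the authors' table.

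Leaving out 1 library of a small group at a time (42 refits) was tested with a Wald form of the quasi-likelihood test, which with all 303 libraries gave 41 at day 2, 7 in DBA/2J, 4 in 129S2/SvPas and the same count as in the report for the other comparisons refitted. The refits gave 35 to 46 at day 2, 0 to 2 at day 10, 38 to 40 at day 30, 4 to 5 at day 90, 3 in C57Bl/6J, 7 in DBA/2J, 1 to 2 in BALB/cJ, 3 to 4 in A/J, 3 in AKR/J, 3 to 4 in 129S2/SvPas and 11 to 19 over time. Of 52 named values 8 changed sign in at least 1 setting and 31 lost or gained a call.

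Mice with the same number on both diets showed little common variation in the median (87 pairs, r from -0.32 to 0.64, median 0.012, 26 over 0.1). These values cannot exclude a shared cage or isolation day. The labels do not say whether the numbers pair the mice, and the main fit did not pair them. With the replicate block in limma voom the counts were 28 for the interaction, 43 (40 and 3) at day 2, 0 at day 10, 38 at day 30 and 4 at day 90.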
